A study of Mus musculus with 12 samples.

Results

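Collagen VI is represented here by Col6a1, Col6a2 and Col6a3, 3 of the 24619 genes in the deposited count table of cultured mouse cardiac fibroblasts. They were found by symbol and were selected on earlier results of these same libraries, so their levels and fold changes are given as descriptions, with no test. Col6a1 and Col6a2, which neighbour each other, were set against Col6a3, which lies on another chromosome.

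The α1, α2 and α3 chains encoded by these genes assemble inside the cell, pair into dimers and tetramers, and are secreted to form beaded microfibrils around cells. Fibroblasts are a main source of collagen VI in the heart and in other connective tissues, and mutations in any of the 3 genes cause muscular dystrophies in humans. The α3 chain is the longest, and a fragment cut from its C-terminal end is known as endotrophin.

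The study sequenced 4 groups of 3 libraries each from primary mouse cardiac fibroblasts that had been grown with 10% serum, starved for 12 h and then kept for 24 h in conditioned medium, that is, medium in which other cells had been cultured. TGF_KD_CM received TGF-beta1, which activates fibroblasts, with medium of adipocytes carrying an inhibition lentivirus against the human microRNA hsa-miR-548ay. TGF_VEC_CM received TGF-beta1 with medium of adipocytes carrying a vector lentivirus. OE_CM received medium of adipocytes carrying a lentivirus that overexpresses the microRNA, and VEC_CM received medium of vector adipocytes, both without TGF-beta1. Group membership was read from titles, since for OE_CM and TGF_KD_CM the treatment field says miR-549ay in replicate 2 and miR-550ay in replicate 3. The labels give neither a dose of TGF-beta1 nor a source for the adipocytes, and the level of the microRNA in the adipocytes was not analysed here. The study's design text describes the groups with and without TGF-beta1 as separate parts and does not say whether these were run together, so in TGF_VEC_CM against VEC_CM the growth factor and any difference between the parts cannot be told apart. Whether the 3 libraries of a group were separate cultures is not stated, so each p-value rests on a spread between libraries that may be technical only.

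Libraries held 33379207 to 37226153 counts, and 14400 genes were tested. Of 12 cardiac fibroblast markers, 11 were in the table and 8 stayed above 10 CPM (library-scaled counts, with TMM factors), among them Ddr2, with 410 to 465 CPM over all libraries. Dcn, Lum and Thy1 stayed under 1 CPM in every library, with highest values of 0.268, 0.0282 and 0.538 CPM. The 7 endothelial markers in the table summed to 0.786 to 1.49 CPM in TGF_KD_CM, 1.17 to 1.83 in TGF_VEC_CM, 0.508 to 0.595 in OE_CM and 0.547 to 0.738 in VEC_CM. The 8 leukocyte markers summed to 23.6 to 25.9 CPM in TGF_KD_CM, 29.6 to 32.2 in TGF_VEC_CM, 16.8 to 29.3 in OE_CM and 36.3 to 39.1 in VEC_CM, while Ptprc, the pan-leukocyte marker, never passed 0.947 CPM. The leukocyte sum was thus highest in VEC_CM, as were Col6a1 and Col6a2, and its part in their levels was not tested. The 9 adipocyte markers in the table summed to 986 to 1000 CPM in TGF_KD_CM, 778 to 851 in TGF_VEC_CM, 787 to 829 in OE_CM and 957 to 1020 in VEC_CM, led by Plin4, with Adipoq at no more than 0.735 CPM and Lep at no more than 0.0268 CPM. Its expressed members did not share 1 order: Fabp4 was highest in VEC_CM, at 256 to 269 CPM, Cidec was lowest there, at 7.30 to 8.70 CPM, Plin4 was highest in TGF_KD_CM, at 815 to 823 CPM, and Dgat2 was highest in TGF_VEC_CM, at 25.3 to 27.9 CPM. Over all libraries the mural and smooth muscle markers summed to 58.8 to 115 CPM, led by Mcam and Des. Of these 9 markers 7 averaged under 1 CPM, among them Acta2, at no more than 0.739 CPM, and Tagln, at no more than 0.434 CPM. The Schwann cell markers summed to 7.89 to 17.1 CPM, led by S100b, with 3 of 5 averaging under 1 CPM. The mesothelial markers summed to 46.8 to 93.5 CPM, nearly all from Msln, with 4 of 5 averaging under 1 CPM. The cardiomyocyte markers, led by Tnnt2, summed to 97.8 to 104 CPM in TGF_KD_CM, 106 to 116 in TGF_VEC_CM, 163 to 167 in OE_CM and 70.2 to 75.4 in VEC_CM.

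In RefSeq on GRCm38.p6, Col6a1 spans chr10:76708792-76726044 and Col6a2 spans chr10:76595756-76623630, both on the minus strand, with 85.2 kb between them. Col6a3 spans chr1:90766860-90844001, also on the minus strand. The stretches before the outermost starts in the RefSeq promoter table are shown because Col6a1 and Col6a2 had close profiles over the 12 libraries and Col6a3 did not. They are printed on the strand of the gene and without bases that RefSeq or GENCODE places in an exon, at chr10:76726169-76726294 for Col6a1, chr10:76623631-76623880 for Col6a2 and chr1:90844002-90844221 for Col6a3. Capitals mark a GC box (CCGCCC, the reverse complement of GGGCGG) in Col6a2 and SMAD motifs (GTCTG, the reverse complement of CAGAC) in Col6a2 and Col6a3, and the Col6a1 stretch held none of the motifs searched.
Col6a1: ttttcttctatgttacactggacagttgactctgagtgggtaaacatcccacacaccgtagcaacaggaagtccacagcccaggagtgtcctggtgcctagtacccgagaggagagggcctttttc
Col6a2: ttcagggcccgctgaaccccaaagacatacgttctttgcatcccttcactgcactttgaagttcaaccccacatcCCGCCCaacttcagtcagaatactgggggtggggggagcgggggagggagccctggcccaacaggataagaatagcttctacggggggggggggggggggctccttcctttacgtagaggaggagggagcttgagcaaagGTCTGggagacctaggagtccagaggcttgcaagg
Col6a3: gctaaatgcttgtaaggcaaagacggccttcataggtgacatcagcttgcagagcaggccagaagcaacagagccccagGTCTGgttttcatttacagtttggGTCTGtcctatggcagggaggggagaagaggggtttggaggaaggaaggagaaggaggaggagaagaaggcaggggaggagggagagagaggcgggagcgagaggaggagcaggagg

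Each promoter window covered the 250 bases before a start in that table and was searched on both strands. The motifs searched were the TATA box (TATAAA), the CCAAT box, the GC box (GGGCGG), the AP-1 site (TGANTCA) and the SMAD motif (CAGAC). The Col6a1 window held 1 AP-1 site, 90 bases upstream of its start and inside a stretch that GENCODE places in exon 1, so those bases are not printed. The outermost Col6a2 window held 1 GC box 175 bases upstream and 1 SMAD motif 35 bases upstream. A second, inner Col6a2 start had 3 GC box matches, at 67, 15 and 11 bases upstream, and the matches at 15 and 11 overlap each other. Col6a3 had 2 SMAD motifs, at 171 and 147 bases upstream of the start that the table gives, base 90843971, which lies inside the gene span above. Among 32851 mouse promoter windows of this length, a SMAD motif was present in 42.2%, a CCAAT box in 33.8%, a GC box in 32.7%, a TATA box in 12.4% and an AP-1 site in 6.75%. A match describes these letters and is not evidence of binding.

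Col6a1 had 343.3, 360.5 and 336.1 CPM in TGF_KD_CM, 304.5, 320.5 and 331.3 CPM in TGF_VEC_CM, 296.6, 314.9 and 310.6 CPM in OE_CM, and 841.2, 929.0 and 957.5 CPM in VEC_CM. VEC_CM stood far above the other groups, and TGF_KD_CM lay just above TGF_VEC_CM without overlap. TGF_VEC_CM and OE_CM overlapped. In libraries of whole cultures, fewer cells of a type and less RNA per cell cannot be told apart.

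Col6a2 had 170.6, 176.0 and 175.1 CPM in TGF_KD_CM, 146.1, 149.5 and 153.2 CPM in TGF_VEC_CM, 157.6, 164.6 and 156.9 CPM in OE_CM, and 472.9, 503.5 and 537.6 CPM in VEC_CM. Again VEC_CM was highest, followed by TGF_KD_CM, then OE_CM, then TGF_VEC_CM, and no neighbours in that order overlapped.

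Col6a3 had 1278, 1253 and 1224 CPM in TGF_KD_CM, 1294, 1323 and 1350 CPM in TGF_VEC_CM, 1736, 1859 and 1806 CPM in OE_CM, and 1493, 1561 and 1583 CPM in VEC_CM. Its order was different: OE_CM was highest, VEC_CM next, then TGF_VEC_CM and then TGF_KD_CM, with no overlap between neighbours. The gap between TGF_KD_CM and TGF_VEC_CM was narrow, with 1278 CPM in the highest TGF_KD_CM library and 1294 CPM in the lowest TGF_VEC_CM library.

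**Figure D1:**
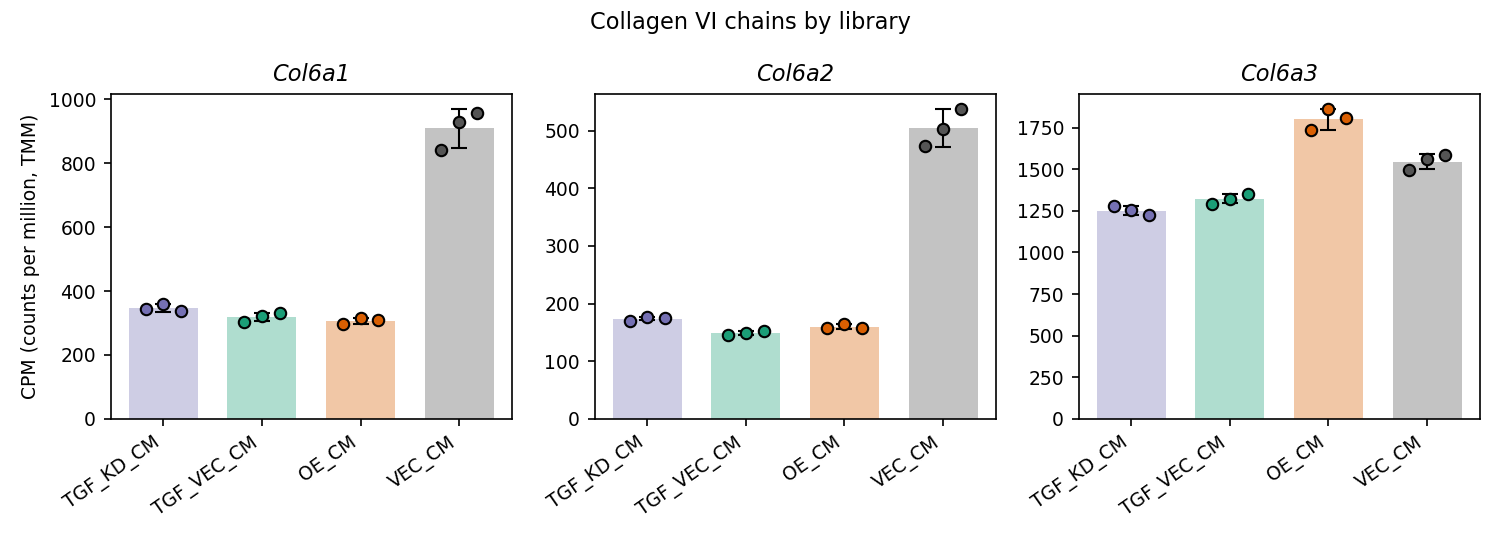
Levels of Col6a1, Col6a2 and Col6a3 in CPM scaled by TMM factors, on axes that start at 0 and differ between panels; points are libraries, bars are group means and error bars are SDs (n = 3). Col6a1 and Col6a2 average 909.3 and 504.7 CPM in VEC_CM and reach at most 360.5 and 176.0 CPM in the other groups, while Col6a3 is highest in OE_CM at 1801 CPM.

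Adipocyte medium with the microRNA overexpressed was compared with vector medium to see what the microRNA in adipocytes changes for fibroblasts. Col6a1 averaged 307.4 ± 9.55 CPM in OE_CM and 909.3 ± 60.6 CPM in VEC_CM (SD, n = 3 each), a log2 fold change of -1.56 ± 0.052 (SE), or 2.96-fold lower in OE_CM. Col6a2 averaged 159.7 ± 4.29 CPM in OE_CM and 504.7 ± 32.4 CPM in VEC_CM, a log2 fold change of -1.66 ± 0.032, or 3.16-fold lower. Col6a3 averaged 1801 ± 61.7 CPM in OE_CM and 1546 ± 46.6 CPM in VEC_CM, a log2 fold change of 0.22 ± 0.024, or 1.17-fold higher. The partner chains α1 and α2 thus stood lower in OE_CM while α3 stood slightly higher, and none of the 3 pairs of groups overlapped. In edgeR's quasi-likelihood test, 25.7% of all tested genes were called lower in OE_CM and 28.4% higher; 2 members were among the lower and 1 among the higher, which the selection of the members fixes. With upper-quartile scaling the calls over all genes were 2798 higher and 5059 lower, against 4083 higher and 3695 lower with TMM, and the Col6a3 log2 fold change was 0.13.

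With TGF-beta1 present, medium of adipocytes with the microRNA inhibited was compared with vector medium. Col6a1 averaged 346.7 ± 12.5 CPM in TGF_KD_CM and 318.7 ± 13.5 CPM in TGF_VEC_CM (SD, n = 3 each), a log2 fold change of 0.12 ± 0.052 (SE), or 1.09-fold higher. Col6a2 averaged 173.9 ± 2.91 CPM in TGF_KD_CM and 149.6 ± 3.57 CPM in TGF_VEC_CM, a log2 fold change of 0.22 ± 0.033, or 1.16-fold higher. Col6a3 averaged 1252 ± 27.1 CPM in TGF_KD_CM and 1323 ± 28 CPM in TGF_VEC_CM, a log2 fold change of -0.08 ± 0.024, or 1.06-fold lower. For Col6a1 and Col6a2 these differences were small beside those in OE_CM, and Col6a3 had the opposite sign to both. For Col6a3 the sizes in the 2 comparisons depended on the scaling: with upper-quartile factors its log2 fold change was 0.13 in OE_CM and -0.10 here. Of all tested genes, 23.0% were called higher and 20.2% lower in TGF_KD_CM; 1 member, Col6a2, was among the higher, 1, Col6a3, among the lower, and Col6a1 was in neither. The majority of calls over all genes turned with the scaling, at 2898 higher and 3330 lower with upper-quartile factors, against 3318 higher and 2911 lower with TMM. Without TGF_VEC_CM replicate 1, the Col6a2 log2 fold change was 0.19.

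TGF_VEC_CM was compared with VEC_CM to set TGF-beta1 with vector medium against vector medium alone, 2 groups that the design text describes under different parts. Col6a1 was 2.85-fold lower in TGF_VEC_CM, with a log2 fold change of -1.51 ± 0.052 (SE). Col6a2 was 3.37-fold lower, with a log2 fold change of -1.75 ± 0.032. Col6a3 was 1.17-fold lower, with a log2 fold change of -0.22 ± 0.024. All 3 chains were therefore lower in TGF_VEC_CM, α3 by much less than α1 and α2. Calls over all tested genes were 28.9% higher and 29.4% lower, and the 3 members were among the lower. Because this comparison shares VEC_CM with the one of OE_CM, and shares TGF_VEC_CM with the one of TGF_KD_CM, the like sizes of the Col6a1 and Col6a2 differences in the comparisons are not separate observations.

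Ratios between the chains within a library do not depend on how libraries are scaled. They were taken from the deposited FPKM (counts scaled by library total and by gene length), in which 1 length per gene had been used. On that scale Col6a1 averaged 88.1 ± 2.77 FPKM in TGF_KD_CM, 82.9 ± 3.63 in TGF_VEC_CM, 73.6 ± 2.23 in OE_CM and 229.4 ± 14.8 in VEC_CM (SD, n = 3 each). Col6a2 averaged 29.2 ± 0.369 FPKM in TGF_KD_CM, 25.7 ± 0.644 in TGF_VEC_CM, 25.3 ± 0.552 in OE_CM and 84.2 ± 5.26 in VEC_CM. Col6a3 averaged 116.5 ± 2.75 FPKM in TGF_KD_CM, 125.9 ± 2.84 in TGF_VEC_CM, 157.9 ± 5.08 in OE_CM and 142.8 ± 4.01 in VEC_CM. Per length, Col6a1 was thus the most abundant chain in VEC_CM, Col6a3 was the most abundant in the other groups, and Col6a2 was lowest in all 4.

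The FPKM ratio of Col6a1 over Col6a3 was 0.734, 0.786 and 0.750 in TGF_KD_CM, 0.642, 0.661 and 0.670 in TGF_VEC_CM, 0.467, 0.463 and 0.470 in OE_CM, and 1.54, 1.63 and 1.65 in VEC_CM. It lay above 1 only in the VEC_CM libraries, and the ranges of the 4 groups were separate. Its log2 difference was -1.78 ± 0.032 (SE) for OE_CM minus VEC_CM, a ratio 3.44-fold lower, 0.20 ± 0.034 for TGF_KD_CM minus TGF_VEC_CM and -1.29 ± 0.036 for TGF_VEC_CM minus VEC_CM.

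The FPKM ratio of Col6a2 over Col6a3 was 0.241, 0.254 and 0.258 in TGF_KD_CM, 0.204, 0.204 and 0.205 in TGF_VEC_CM, 0.164, 0.160 and 0.157 in OE_CM, and 0.572, 0.582 and 0.613 in VEC_CM. The groups took the same order as for Col6a1 over Col6a3, with VEC_CM highest and OE_CM lowest. Its log2 difference was -1.88 ± 0.035 for OE_CM minus VEC_CM, a ratio 3.68-fold lower, 0.30 ± 0.030 for TGF_KD_CM minus TGF_VEC_CM and -1.53 ± 0.030 for TGF_VEC_CM minus VEC_CM.

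The 2 neighbouring genes held a much steadier ratio to each other. Col6a1 over Col6a2 ran over 2.90 to 3.10 in TGF_KD_CM, 3.15 to 3.27 in TGF_VEC_CM, 2.85 to 2.99 in OE_CM and 2.69 to 2.79 in VEC_CM. Its log2 difference was 0.10 ± 0.028 for OE_CM minus VEC_CM, -0.10 ± 0.032 for TGF_KD_CM minus TGF_VEC_CM and 0.24 ± 0.024 for TGF_VEC_CM minus VEC_CM, and the ranges did not overlap in any of the 3. The level of this ratio depends on the lengths used, which were 3976 bases for Col6a1, 6014 for Col6a2 and 10858 for Col6a3 in the deposited FPKM. With the longest coding GENCODE transcripts, of 4100, 4653 and 10106 bases, its value in VEC_CM was 2.04 in place of 2.72, while differences between groups stay as they are.

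**Figure D2:**
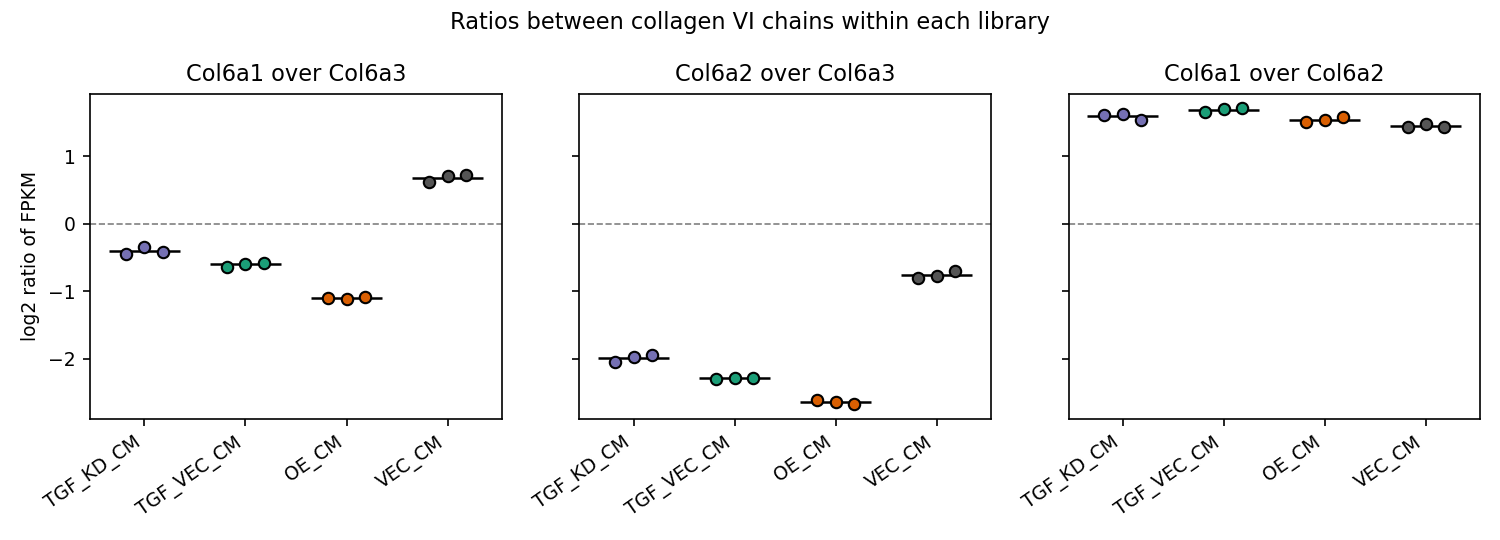
Log2 FPKM ratio between chains in each library, with a line at each group's mean (n = 3); 0 stands for equal levels per length. The ratios of Col6a1 and of Col6a2 over Col6a3 are highest in VEC_CM, with group values of 1.60 and 0.589, and lowest in OE_CM, with 0.466 and 0.160, while Col6a1 over Col6a2 stays between 2.69 and 3.27 in every library.

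Expressed as shares of the summed FPKM of the 3 chains, Col6a1 made up 37.7% ± 0.74 in TGF_KD_CM, 35.3% ± 0.48 in TGF_VEC_CM, 28.7% ± 0.19 in OE_CM and 50.2% ± 0.68 in VEC_CM (SD, n = 3 each). Col6a2 made up 12.5% ± 0.33 in TGF_KD_CM, 11% ± 0.061 in TGF_VEC_CM, 9.85% ± 0.21 in OE_CM and 18.4% ± 0.32 in VEC_CM. Col6a3 made up 49.8% ± 0.80 in TGF_KD_CM, 53.7% ± 0.42 in TGF_VEC_CM, 61.5% ± 0.15 in OE_CM and 31.3% ± 0.77 in VEC_CM. The sum itself was 234 ± 4.07 FPKM in TGF_KD_CM, 235 ± 7.12 in TGF_VEC_CM, 257 ± 7.65 in OE_CM and 456 ± 23.9 in VEC_CM, so VEC_CM had both the most collagen VI messenger RNA per length and the smallest α3 share. Levels of the shares and of the sum depend on the lengths in the deposited FPKM, as do the collagen ranks below. With the longest coding GENCODE transcripts, Col6a1 over Col6a3 in VEC_CM was 1.45 in place of 1.6. Col6a2 over Col6a3 was 0.708 there in place of 0.589.

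The mouse has further α chains that can take the place of α3, encoded by Col6a4, Col6a5 and Col6a6. They had 24, 1 and 10 counts in all 12 libraries together, and none was tested. Col6a4 had 10 counts in TGF_KD_CM, 10 in TGF_VEC_CM, 2 in OE_CM and 2 in VEC_CM, and passed 3 counts in a library 3 times, with 5 in TGF_KD_CM replicate 2 and 6 and 4 in TGF_VEC_CM replicates 1 and 3. These counts stand beside 634883 for Col6a3 in all 12 libraries.

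Among the 44 collagen genes in the table, ranked by FPKM, Col6a1 held rank 5 in TGF_KD_CM, 7 in TGF_VEC_CM, 8 in OE_CM and 2 in VEC_CM. Col6a2 held rank 13 in TGF_KD_CM, TGF_VEC_CM and OE_CM, and rank 6 in VEC_CM. Col6a3 held rank 3 in TGF_KD_CM, TGF_VEC_CM and OE_CM, and rank 4 in VEC_CM. Col1a2, a chain of fibrillar collagen I, was first in all 4 groups. The neighbouring pair therefore stood lower in the order outside VEC_CM, while the ranks of Col6a3 differed by 1.

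Of the other 41 collagen genes, 25 were tested. In OE_CM against VEC_CM, 10 were called higher and 8 lower, where 28.4% of all genes were called higher and 25.7% lower, with a median log2 fold change of 0.017 beside -0.008 over all genes. Col7a1, the anchoring fibril collagen, averaged 97.4 ± 3.88 CPM in OE_CM and 17.6 ± 0.947 CPM in VEC_CM, a log2 difference of 2.47 ± 0.048 (edgeR adjusted p = 1.75e-49). Col4a5, a basement membrane chain, averaged 11.4 ± 0.511 CPM in OE_CM and 26.2 ± 1.34 CPM in VEC_CM, a log2 fold change of -1.20 ± 0.071 (adjusted p = 1.68e-23). Col27a1 and Col8a2 had the greatest rises beside Col7a1, and Col9a1 and Col15a1 the greatest fitted falls beside Col4a5, all averaging under 4 CPM in both groups, with Col9a1 under 3 counts in every OE_CM library. The fall of Col15a1 was lost without OE_CM replicate 1 or OE_CM replicate 3, with log2 fold changes of -1.15 and -0.91 and edgeR adjusted p = 0.067 and 0.124.

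In TGF_KD_CM against TGF_VEC_CM, 4 of the 25 were called higher and 11 lower, where 23.0% of all genes were called higher and 20.2% lower, with a median of -0.068 beside 0.0 over all genes. Col3a1, a fibrillar collagen, averaged 121.8 ± 4.84 CPM in TGF_KD_CM and 95.9 ± 5.78 CPM in TGF_VEC_CM, a log2 difference of 0.34 ± 0.038 (edgeR adjusted p = 1.91e-11). Col5a2 and Col1a2, also fibrillar, rose by 0.23 ± 0.023 and 0.16 ± 0.020 on the log2 scale. Col23a1, Col26a1 and Col27a1 had the greatest fitted falls, all averaging under 4 CPM in both groups, and 2 of the 3 TGF_KD_CM libraries held at most 3 counts of Col23a1, and likewise of Col26a1.

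In TGF_VEC_CM against VEC_CM, 18 of the 25 were called higher and 1 lower, where 28.9% of all genes were called higher and 29.4% lower, with a median of 0.50 beside 0.004 over all genes. The 1 gene called lower was Col5a3, which averaged 238.6 ± 2.19 CPM in TGF_VEC_CM and 304.1 ± 4.61 CPM in VEC_CM, a log2 fold change of -0.35 ± 0.027 with an edgeR adjusted p = 2.7e-18. Col27a1 averaged 3.71 ± 0.520 CPM in TGF_VEC_CM and 0.300 ± 0.0266 CPM in VEC_CM, a log2 fold change of 3.61 ± 0.27. Col26a1 and Col23a1 were also called higher, at 0.940 ± 0.181 and 1.04 ± 0.207 CPM in TGF_VEC_CM, but VEC_CM held only 3, 1 and 3 counts of Col26a1 and 6, 6 and 2 of Col23a1, so no fold is given. In this comparison Col6a1 and Col6a2, at -1.51 and -1.75, lay below every other collagen gene tested.

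**Figure D3:**
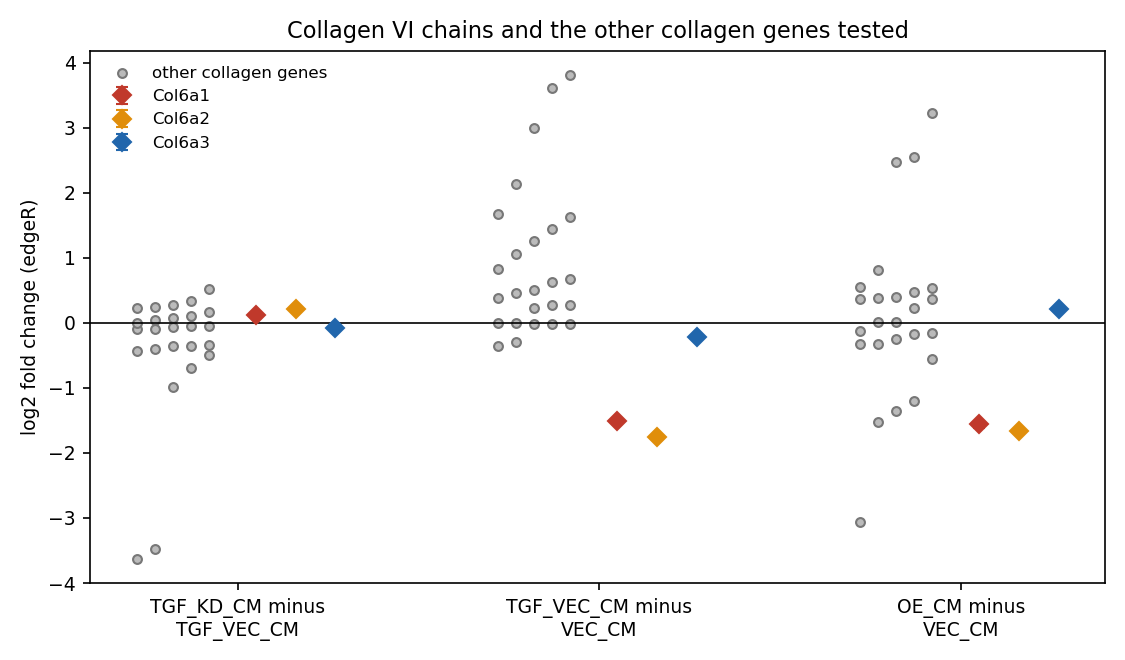
Log2 fold changes (edgeR) of the 25 other collagen genes tested (grey) and of Col6a1, Col6a2 and Col6a3 (coloured diamonds, with SE bars smaller than the symbols) in the 3 comparisons. In TGF_VEC_CM minus VEC_CM the lowest other collagen is Col5a3 at -0.35, with Col6a1 and Col6a2 at -1.51 and -1.75. Some points rest on 1 or more groups with libraries at or under 3 counts, and their sizes depend on the fit. Among them are Col9a1 in OE_CM minus VEC_CM, and Col23a1 and Col26a1 in all 3 comparisons. The other genes plotted were not checked for such counts, and Col15a1 averaged only 0.237 ± 0.216 CPM in OE_CM.

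Receptors and surface proteins described as binding collagen VI or collagens numbered 11, of which 9 were tested. In OE_CM against VEC_CM, 3 were called higher and 5 lower. In TGF_KD_CM against TGF_VEC_CM, 2 were called higher and 3 lower, and in TGF_VEC_CM against VEC_CM 3 were called higher and 4 lower. Their median log2 fold changes were -0.08, -0.09 and 0.005 in the 3 comparisons, beside -0.008, 0.0 and 0.004 over all genes. Shares called over all genes were 28.4% higher and 25.7% lower, 23.0% higher and 20.2% lower, and 28.9% higher and 29.4% lower in the same order.

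Antxr1, an anthrax toxin receptor that binds collagen VI, averaged 39.4 ± 1.80 CPM in TGF_KD_CM, 24.7 ± 2.05 in TGF_VEC_CM, 20.9 ± 0.00567 in OE_CM and 32.8 ± 2.18 in VEC_CM (SD, n = 3 each). It fell in OE_CM by 0.65 ± 0.062 on the log2 scale (edgeR adjusted p = 2.79e-14), rose in TGF_KD_CM by 0.67 ± 0.060 (adjusted p = 3.78e-15) and fell in TGF_VEC_CM against VEC_CM by 0.41 ± 0.061 (adjusted p = 3.15e-08). Cspg4, the NG2 proteoglycan, which also binds collagen VI, averaged 605.8 ± 7.88 CPM in TGF_KD_CM, 798.1 ± 12.8 in TGF_VEC_CM, 875.8 ± 1.83 in OE_CM and 565.0 ± 10.9 in VEC_CM. Its directions were the opposite of those of Antxr1, with log2 fold changes of 0.63 ± 0.023 in OE_CM, -0.40 ± 0.023 in TGF_KD_CM and 0.50 ± 0.023 in TGF_VEC_CM against VEC_CM, each past the edgeR threshold.

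Itga3, an integrin subunit, averaged 35.7 ± 2.02 CPM in TGF_KD_CM, 64.5 ± 0.244 in TGF_VEC_CM, 8.35 ± 0.803 in OE_CM and 70.1 ± 5.33 in VEC_CM. It fell by 3.07 ± 0.064 on the log2 scale in OE_CM (edgeR adjusted p = 1.08e-46) and by 0.85 ± 0.052 in TGF_KD_CM (adjusted p = 4.78e-22). Its difference of -0.12 ± 0.049 between TGF_VEC_CM and VEC_CM had an edgeR adjusted p = 0.0336. The call was lost without any 1 of the libraries compared other than VEC_CM replicate 1, at -0.11 to -0.06 with edgeR adjusted p of 0.101 to 0.374. With all libraries it was lost with upper-quartile factors (edgeR adjusted p = 0.0951), DESeq2 (adjusted p = 0.0807) and limma on log2(FPKM + 1) (adjusted p = 0.336). The remaining alternative fits kept the call. Itgb1, the β1 subunit with which the collagen-binding integrins pair, had log2 fold changes of 0.37 ± 0.024 in OE_CM, -0.12 ± 0.024 in TGF_KD_CM and 0.29 ± 0.024 in TGF_VEC_CM against VEC_CM, all called.

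Matrix proteins described as binding collagen VI microfibrils or lying close to them numbered 16, of which 10 were tested. In OE_CM against VEC_CM 4 were called higher and 5 lower, in TGF_KD_CM against TGF_VEC_CM 5 higher and 5 lower, and in TGF_VEC_CM against VEC_CM 4 higher and 4 lower. Their median log2 fold changes were 0.03, -0.10 and -0.04. Calls over all genes were 28.4% higher and 25.7% lower in OE_CM, 23.0% higher and 20.2% lower in TGF_KD_CM and 28.9% higher and 29.4% lower in TGF_VEC_CM, with medians of -0.008, 0.0 and 0.004. Dcn, decorin, which binds collagen VI in tissue, was among those too low to test.

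Bgn, biglycan, averaged 1464 ± 34.0 CPM in OE_CM and 1047 ± 50.3 CPM in VEC_CM, a log2 difference of 0.48 ± 0.024 (edgeR adjusted p = 4.04e-25). Tnxb, tenascin-X, averaged 55.2 ± 2.67 CPM in TGF_KD_CM, 86.4 ± 0.463 in TGF_VEC_CM, 10.1 ± 0.411 in OE_CM and 45.6 ± 1.49 in VEC_CM. It fell by 2.17 ± 0.058 on the log2 scale in OE_CM, fell by 0.65 ± 0.044 in TGF_KD_CM and rose by 0.92 ± 0.045 in TGF_VEC_CM against VEC_CM. Matn2, matrilin-2, an adaptor protein of the matrix, averaged 375.7 ± 5.13 CPM in TGF_KD_CM, 267.7 ± 5.35 in TGF_VEC_CM, 379.3 ± 6.18 in OE_CM and 421.3 ± 2.16 in VEC_CM. Matn2 fell by 0.15 ± 0.024 in OE_CM, rose by 0.49 ± 0.025 in TGF_KD_CM and fell by 0.65 ± 0.025 in TGF_VEC_CM against VEC_CM. Tgfbi, a matrix protein named for its induction by TGF-beta, rose by 0.74 ± 0.046 in OE_CM and by 0.84 ± 0.047 in TGF_KD_CM, and fell by 0.20 ± 0.047 in TGF_VEC_CM against VEC_CM. Within this list the directions were mixed in all 3 comparisons.

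Enzymes, chaperones and export factors of collagen synthesis numbered 21, of which 19 were tested. In OE_CM against VEC_CM 8 were called higher and 2 lower, in TGF_KD_CM against TGF_VEC_CM 9 higher and 4 lower, and in TGF_VEC_CM against VEC_CM 10 higher and 6 lower, with median log2 fold changes of 0.07, 0.10 and 0.14. Over all genes, called shares were 28.4% higher and 25.7% lower in OE_CM, 23.0% higher and 20.2% lower in TGF_KD_CM and 28.9% higher and 29.4% lower in TGF_VEC_CM, with medians of -0.008, 0.0 and 0.004. Plod2, a lysyl hydroxylase, averaged 180.9 ± 4.82 CPM in TGF_KD_CM, 217.5 ± 7.67 in TGF_VEC_CM, 194.8 ± 1.83 in OE_CM and 131.9 ± 3.69 in VEC_CM. It rose by 0.56 ± 0.030 on the log2 scale in OE_CM and by 0.72 ± 0.030 in TGF_VEC_CM against VEC_CM, and fell by 0.27 ± 0.029 in TGF_KD_CM, all past the edgeR threshold. P3h3, of the prolyl 3-hydroxylase family, had log2 fold changes of -0.19 ± 0.043 in OE_CM, 0.61 ± 0.045 in TGF_KD_CM and -0.88 ± 0.045 in TGF_VEC_CM against VEC_CM, all called.

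Proteases described as cutting collagen VI or procollagens numbered 10, of which 9 were tested. In OE_CM against VEC_CM 3 were called higher and 4 lower, in TGF_KD_CM against TGF_VEC_CM 3 higher and 2 lower, and in TGF_VEC_CM against VEC_CM 4 higher and 2 lower, with median log2 fold changes of -0.24, -0.07 and 0.28. The corresponding shares over all genes were 28.4% higher and 25.7% lower in OE_CM, 23.0% higher and 20.2% lower in TGF_KD_CM and 28.9% higher and 29.4% lower in TGF_VEC_CM, with medians of -0.008, 0.0 and 0.004. Furin, a proprotein convertase, averaged 212.6 ± 5.42 CPM in OE_CM and 114.7 ± 3.73 CPM in VEC_CM, a log2 difference of 0.89 ± 0.031 (edgeR adjusted p = 1.82e-35). Mmp14, a membrane-bound metalloproteinase, averaged 365.0 ± 3.29 CPM in TGF_KD_CM, 255.7 ± 3.01 in TGF_VEC_CM, 486.6 ± 7.87 in OE_CM and 362.4 ± 12.9 in VEC_CM. It rose by 0.42 ± 0.025 in OE_CM and by 0.51 ± 0.026 in TGF_KD_CM, and fell by 0.50 ± 0.026 in TGF_VEC_CM against VEC_CM. Bmp1, a procollagen C-proteinase, rose by 0.49 ± 0.040 in OE_CM. Among the 4 called lower in OE_CM, Adamts2 averaged 42.4 ± 2.58 CPM there and 67.3 ± 2.32 CPM in VEC_CM. Its log2 fold change was -0.67 ± 0.046 (edgeR adjusted p = 3.1e-20), and that of Adamts14 was -0.54 ± 0.084 (adjusted p = 1.21e-07).

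The genes around the 2 loci were described for whether they shared the members' values. Of 12 RefSeq genes next to or between Col6a1 and Col6a2, 7 were in the table and 3 were tested. Gm51774, a long non-coding RNA gene at chr10:76643058-76652328 in the gap between Col6a2 and Col6a1, had 30, 26 and 14 counts in TGF_KD_CM, 26, 23 and 18 in TGF_VEC_CM, 10, 9 and 19 in OE_CM, and 34, 53 and 55 in VEC_CM. It was highest in VEC_CM, like the genes on either side of it. Its log2 fold change was -1.76 ± 0.39 in OE_CM against VEC_CM (edgeR adjusted p = 8.19e-05), 0.04 ± 0.38 in TGF_KD_CM against TGF_VEC_CM (adjusted p = 0.945) and -1.07 ± 0.36 in TGF_VEC_CM against VEC_CM (adjusted p = 0.00814). The last call was lost without TGF_VEC_CM replicate 3, at -0.92 with an edgeR adjusted p = 0.0503, and reads were counted with a strand setting that the labels do not state.

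Lss, lanosterol synthase of the cholesterol pathway, lies 38.6 kb beyond Col6a2 and averaged 42.1 ± 1.79 CPM in TGF_KD_CM, 38.3 ± 3.03 in TGF_VEC_CM, 85.1 ± 3.75 in OE_CM and 111 ± 3.58 in VEC_CM. Its log2 fold change was -0.39 ± 0.042 in OE_CM (edgeR adjusted p = 3.84e-12) and -1.54 ± 0.045 in TGF_VEC_CM against VEC_CM (adjusted p = 3.02e-38). In TGF_KD_CM against TGF_VEC_CM it was 0.13 ± 0.048 (edgeR adjusted p = 0.0197). It missed the threshold without TGF_KD_CM replicate 1 or without TGF_VEC_CM replicate 1 or 2, at 0.08, 0.06 and 0.12 with edgeR adjusted p of 0.203, 0.335 and 0.0749. With all libraries it also missed with upper-quartile factors (0.11, edgeR adjusted p = 0.0578) and with limma on log2(FPKM + 1) (0.09, adjusted p = 0.188). Lss was thus close to Col6a1 in the 2 comparisons with TGF_VEC_CM (-1.51 and 0.12 for Col6a1), and smaller than the pair in OE_CM. Pcbp3, an RNA-binding protein gene on the other side of the pair, had log2 fold changes of 0.16 ± 0.15 in OE_CM (adjusted p = 0.392), -0.56 ± 0.13 in TGF_KD_CM (adjusted p = 0.000264) and 1.5 ± 0.14 in TGF_VEC_CM against VEC_CM (edgeR adjusted p = 1.38e-14).

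**Figure D4:**
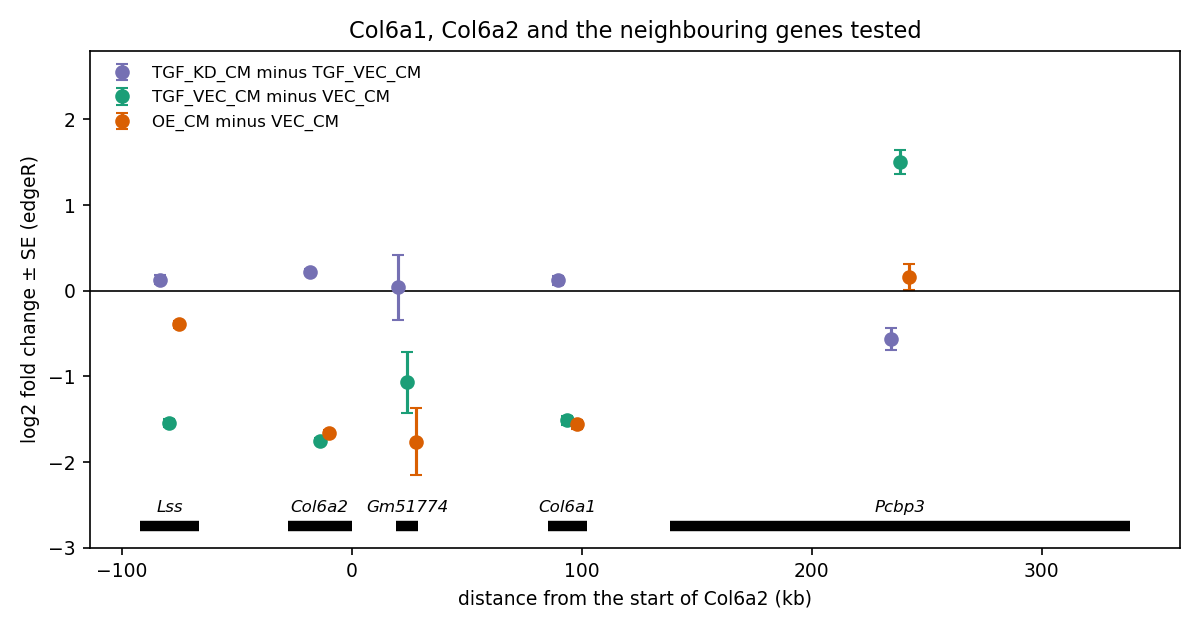
Log2 fold changes (edgeR) with SE of Col6a1, Col6a2 and the 3 tested neighbours, placed by distance along the chromosome from the start of Col6a2; black bars are the genes. Gm51774, between the pair, is at -1.76 in OE_CM minus VEC_CM beside -1.66 for Col6a2 and -1.56 for Col6a1, while Lss is at -0.39 and Pcbp3 at 0.16.

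All 10 RefSeq neighbours of Col6a3 were in the table and 5 were tested. In OE_CM against VEC_CM, Cops8, a subunit of the COP9 signalosome, had a log2 difference of 0.37 ± 0.033 (edgeR adjusted p = 1.5e-15) and Lrrfip1 one of 0.31 ± 0.028 (adjusted p = 1.63e-15), beside 0.22 ± 0.024 for Col6a3. Mlph, melanophilin, had a log2 fold change of -0.52 ± 0.068 in OE_CM (adjusted p = 8.71e-09) and -0.45 ± 0.067 in TGF_VEC_CM against VEC_CM (edgeR adjusted p = 1.63e-07). The tested neighbours of Col6a3 thus lay on both sides of 0 in OE_CM.

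Likeness to each chain was measured as Pearson r of log2 CPM over the 12 libraries, among 11994 genes with a mean of at least 1 CPM, as a description. The 12 libraries share 4 groups and 1 scaling. The gene most like Col6a1 was Col6a2, and the reverse, with r = 0.9961. After Col6a2, Col6a1 was most like Chp1 (r = 0.9925), Rgl1 (0.9918), Cd151 (0.9885) and Utrn (0.988). Col6a2 was next most like Utrn (r = 0.9928), Atp6v0a1 (0.9879), Cd151 (0.9874) and Tubb2a (0.9871). The differences of these genes were much smaller than those of the pair: Utrn, the gene of utrophin, had a log2 fold change of -0.47 in OE_CM against VEC_CM, and Chp1 one of -0.56.

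Col6a3 had r = 0.1476 with Col6a1, which placed it 4983rd among the genes ranked by likeness to Col6a1, and r = 0.1974 with Col6a2, at place 4692. The genes most like Col6a3 were Lsm6 (r = 0.9801), Tmem97 (0.9779), Plec (0.9761), Pde12 (0.9736) and Uqcrc1 (0.973). Plec, the gene of plectin, a linker of the cytoskeleton, averaged 890.9 ± 19.0 CPM in TGF_KD_CM, 892.6 ± 15.1 in TGF_VEC_CM, 1400 ± 29.0 in OE_CM and 1092 ± 14.3 in VEC_CM. Like Col6a3 it was highest in OE_CM and next highest in VEC_CM. No gene stood among the 5 nearest of both the neighbouring pair and Col6a3.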

How the data were processed

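Messenger RNA of mouse cardiac fibroblasts was sequenced in 12 libraries, prepared from 1.3 µg of total RNA each, per the labels' protocols. The deposited count table holds whole-number counts without normalization, and the authors' FPKM table holds those counts scaled by library total and by 1 length for each gene, a relation that held in all 24619 genes to within 0.0002%. The build was GRCm38 (mm10), as the submitters' processing notes state; aligner, counting program, strand setting and annotation were not given in the sources used here, so reads of overlapping or antisense genes may be mixed. The members and gene lists were chosen with earlier results of these data known.

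Counts were fitted with edgeR 4.0.16 in R 4.3.3: filterByExpr kept 14400 genes and removed 10219, TMM factors were used, and all 12 libraries entered 1 robust quasi-likelihood model with 4 group means, as the spread is shared. Two-sided p-values were adjusted by Benjamini-Hochberg across the genes tested and called at 0.05; the common coefficient of variation was 0.0341. Members, their ratios and likeness are descriptions. Named genes are the members, the further chains, up to 3 genes called in each direction per list and comparison, with the largest changes, 5 neighbours per side and 5 most alike genes per member; the text gives values for the better expressed of them. Library totals of 33379207 to 37226153 make 3 counts at most 0.0939 CPM; such floors cover counting error only. Replicates differed by more than sampling noise (chi-square per gene at least 2.87). Alternatives were upper-quartile factors, DESeq2 1.42.0, no filter, a replicate block, fits of only the groups compared, limma 3.58.1 on log2(FPKM + 1) with genes of a mean FPKM of at least 0.1, and each library left out. GENCODE M21 lengths were an alternative added after seeing the data. Promoters and positions came from RefSeq tables. The procedure was tested on simulated data.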

Additional observations from a re-analysis of the deposited data

How the results depend on the processing

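The log2 fold changes of Col6a1, Col6a2 and Col6a3 and the differences between their ratios kept their direction under every alternative run; 171 alternative values lay within the spread between replicates and 9 beyond it. With upper-quartile factors, OE_CM against VEC_CM gave -1.65 for Col6a1, -1.75 for Col6a2 and 0.13 for Col6a3, a shift shared by the median of all genes (-0.095). On log2(FPKM + 1), limma gave 0.14 for Col6a3 in OE_CM, 0.18 for Col6a2 and -0.11 for Col6a3 in TGF_KD_CM against TGF_VEC_CM, and -1.67 for Col6a2 and -0.18 for Col6a3 in TGF_VEC_CM against VEC_CM; it called 2779 genes higher and 4478 lower in OE_CM. Leaving out each library gave 0.19 to 0.22 for Col6a2 in TGF_KD_CM. The cause was not tested. Counts of genes called over all genes, partners and other collagens stayed within 1.5 times under these alternatives.

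With the replicate block the members' values were equal to 2 decimals, and genes called numbered 7894 in OE_CM, 6381 in TGF_KD_CM and 8521 in TGF_VEC_CM against VEC_CM. Deviations from the group means in same-numbered libraries had correlations of 0.0286 to 0.0915. Differently numbered libraries were not compared in this way, so whether the numbers pair the libraries cannot be told from these values. Of 1357 alternative values for partner, collagen and neighbouring genes, 59 lost a call, 7 gained one and none reversed.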
